A study of Rattus norvegicus with 5 samples.

Results

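The genes described here encode the path that carries glucose into the cell and on to lactate or the mitochondrion: glucose transporters, the enzymes of glycolysis, lactate dehydrogenase, the monocarboxylate transporters that export lactate, enzymes of the pentose phosphate pathway, and pyruvate dehydrogenase with its kinases. They were chosen by name, as 31 gene symbols. Of these, 28 had a row in the deposited gene table of 20339 genes, and the glucose transporter Slc2a3 was taken as its row in the isoform table. Gapdh and Pgd had no row under their symbols and were not analysed here. All 29 genes with a row passed the filter on low counts and were tested among 13307 features.

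The 5 libraries came from whole corneas of male Sprague-Dawley rats aged 6 months. Of these, 2 came from transgenic P1 hMR rats, in which a human NR3C2 transgene is overexpressed. Its product is the mineralocorticoid receptor, the nuclear receptor of aldosterone, which corticosterone also occupies. The other 3 libraries came from wild-type rats. The promoter of the transgene, the number of founder lines, and any litter, dissection day or time of day are not given in the sources used here. The comparison asks how an excess of this receptor changes corneal transcripts, and here those of glucose use.

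The cornea has no blood vessels, and its cells take up glucose mainly from the aqueous humour behind it. The epithelium turns much of that glucose into lactate, which crosses the stroma and is removed by the endothelium on the inner face; lactate that stays in the stroma draws water and swells the tissue. The pentose phosphate pathway branches from glycolysis and supplies NADPH, which keeps glutathione reduced under light and oxygen, and ribose for nucleotides.

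Gene-table totals were 26280687 and 30449675 estimated counts in transgenic corneas 1 and 2, and 20874010 to 27692181 in wild-type corneas. Human NR3C2 had 1094 and 1146 counts in the transgenic libraries and 0 in each wild-type library. The corneal keratin Krt12 had 45484 and 32233 CPM (read counts scaled to the effective library size) in transgenic corneas and 37472 to 45072 CPM in wild-type corneas. No cell type marker in the lists passed the test by edgeR. In both transgenic corneas, levels exceeded those of every wild-type cornea for 7 of 12 tested keratocyte and stroma markers, where 12% of all features did so, with summed levels of 2976 and 3230 CPM in transgenic corneas against 2403 to 2525 CPM in wild-type corneas. The same held for 8 of 9 pigment cell markers, with sums of 93.2 and 170 CPM in transgenic corneas against 13.8 to 53.7 CPM in wild-type corneas, and none of these markers was at 0 in all libraries. Sums of the 15 epithelial markers overlapped, at 99308 and 77969 CPM in transgenic corneas and 83753 to 93581 CPM in wild-type corneas. Most of each sum was Krt12 and Krt5. Of the 15 markers, 2 (Epcam and Ehf) lay below every wild-type cornea in both transgenic corneas, where 10.7% of all features did. None of the 15 lay above. In whole tissue, fewer cells of a type and less RNA per cell cannot be told apart, and the part of cell mixture in the results below was not tested.

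No gene of glucose use passed the test for a difference between genotypes. By the quasi-likelihood test of edgeR, with p adjusted over all 13307 features and a threshold of 0.05, 0 of the 29 genes rose and 0 fell, beside 0.00751% of all features called, which is NR3C2 alone. At an unadjusted p under 0.05 there were 2, Slc2a3 and Pdk2, against 6.34% of all features. DESeq2 called 1 of the 29, Slc2a3, against 0.46% of the features it adjusted, and limma voom called 0. Fold changes were small: 19 were above 0 and 10 below, the median log2 fold change was 0.04 (-0.01 over all features), and 22 of the 29 were smaller than 0.2 in size. The 95% interval of the fold change lay within 1.5-fold in either direction for 20 genes. For the other 9 (Slc2a3, Pfkp, Aldoc, Eno2, Ldhb, Slc16a3, Rpia, Pdk2 and Pdk4) it did not. In both transgenic corneas 4 genes exceeded every wild-type cornea (Slc2a3, Pfkl, Pfkp and Pdk2), as did 12% of all features, and 1 gene (Ldhb) lay under every wild-type cornea, as did 10.7%. For Ldhb that separation was lost under DESeq2's scaling.

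**Figure D1:**
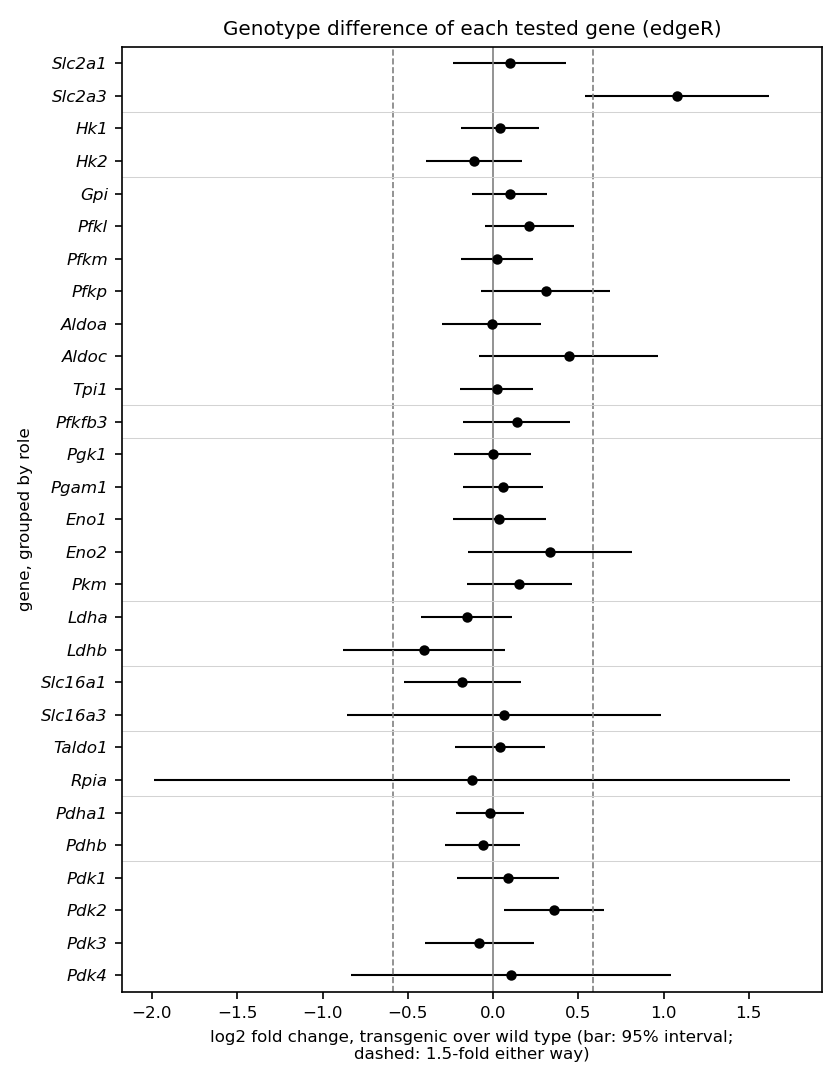
Log2 fold change of each of the 29 tested genes, transgenic over wild type, from edgeR, with its 95% interval as a bar; dashed lines mark 1.5-fold in either direction and grey lines separate roles. Slc2a3 stands apart at 1.08, Rpia has the widest interval (-1.99 to 1.74), and 20 intervals lie between the dashed lines.

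The summed level of the set overlapped between genotypes. Abundant genes weigh most in this sum, chiefly Pkm, Ldha, Taldo1, Eno1 and Aldoa. The 29 genes summed to 4977 and 4334 CPM in transgenic corneas 1 and 2, and to 4289, 4873 and 4546 CPM in wild-type corneas 1 to 3. Transgenic cornea 1 was the highest of the 5 and transgenic cornea 2 lay within the wild-type range. For 14 of the 29 genes the highest library was less than 1.3 times the lowest. For 3 genes it was at least 2 times the lowest: Slc2a3, the lactate transporter Slc16a3, and Rpia of the pentose phosphate pathway.

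**Figure D2:**
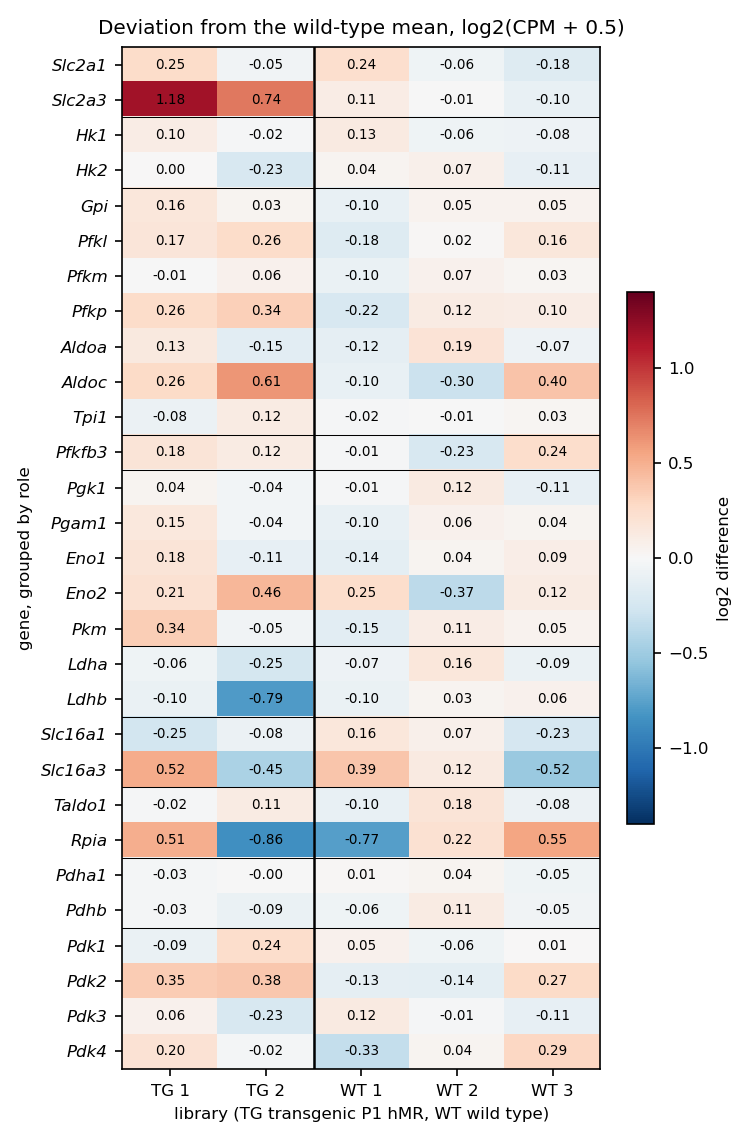
Deviation of each gene in each library from the wild-type mean, on the log2(CPM + 0.5) scale, for 2 transgenic (TG) and 3 wild-type (WT) corneas; red is above and blue below the wild-type mean. Slc2a3 reads 1.18 and 0.74 in the transgenic columns, while Rpia splits within both genotypes, and Ldhb is lowest in transgenic cornea 2 (-0.79).

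Glucose enters cells through facilitative transporters. Slc2a1 encodes GLUT1, the main glucose transporter of corneal epithelium and endothelium. It had 188.6 and 152 CPM in transgenic corneas 1 and 2, against 187, 151 and 139.6 CPM in wild-type corneas 1 to 3. Cornea 1 of each genotype was the highest of its group and the groups overlapped (log2 fold change 0.10 ± 0.14 SE, adjusted p = 0.931 by edgeR).

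Slc2a3 encodes GLUT3, a transporter of high affinity best known from neurons. Its isoform row held 193 and 168 counts in transgenic corneas and 91.3, 61.2 and 61.0 counts in wild-type corneas 1 to 3. That is 7.44 and 5.35 CPM in transgenic corneas, against 3.284, 2.98 and 2.78 CPM in wild-type corneas. Both transgenic corneas lay above every wild-type cornea, and the 3 wild-type values lay close together. The log2 fold change was 1.08 ± 0.24 (SE; 2.11-fold, 95% interval 1.45 to 3.07), with an adjusted p of 0.396 by edgeR and 0.0494 by DESeq2. Leaving out 1 library at a time gave 0.82 to 1.3, never past the edgeR threshold. The row is 1 transcript, and reads of the gene on transcripts that the table leaves without a gene name would be missed. As given above, 7 of 12 stromal and 8 of 9 pigment markers also exceeded every wild-type cornea in both transgenic corneas. So did 4 of 9 tested Schwann cell and nerve markers, a list that summed to 413 and 393 CPM in transgenic corneas against 334 to 391 CPM in wild-type corneas; their part in the Slc2a3 difference was not tested.

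**Figure D3:**
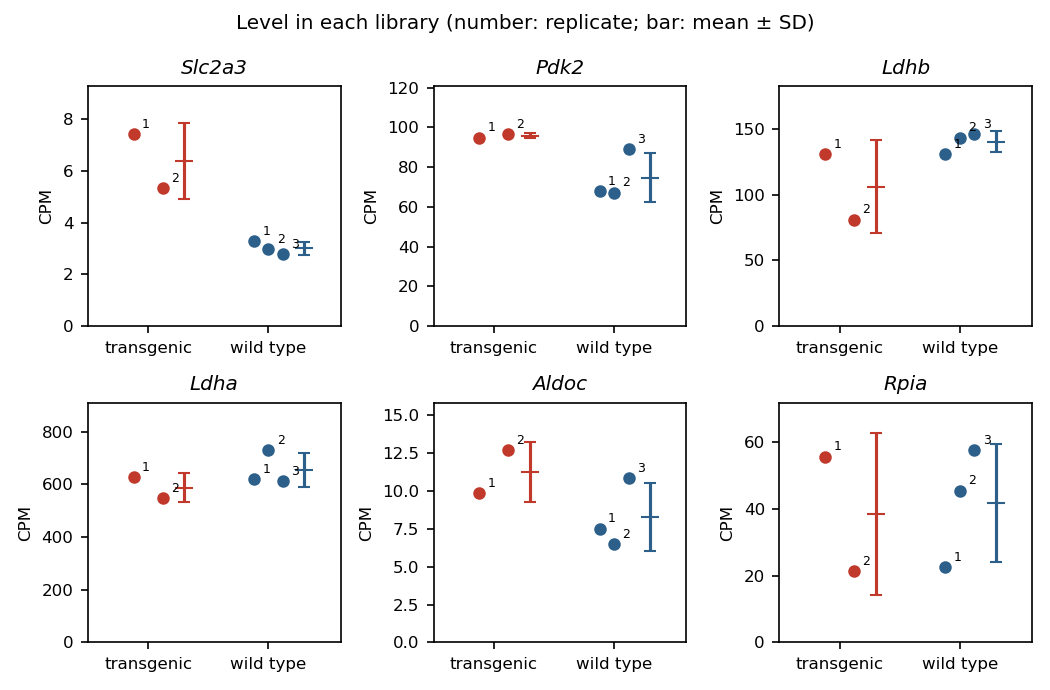
CPM of 6 genes in each library, with the replicate number beside each point and the mean ± SD of the group as a bar (2 transgenic, 3 wild-type corneas; axes start at 0). The genotypes do not overlap for Slc2a3 and Pdk2, Ldhb is low in transgenic cornea 2 only, and Rpia is low in transgenic cornea 2 and wild-type cornea 1.

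Hexokinases trap glucose in the cell by phosphorylation. Hk1, the broadly expressed form, had 72.3 and 66.2 CPM in transgenic corneas and 73.6, 64.7 and 63.8 CPM in wild-type corneas. Hk2, the form that insulin and hypoxia raise in muscle and fat, had 25.2 and 21.4 CPM in transgenic corneas and 25.7, 26.4 and 23.2 CPM in wild-type corneas. Both genes overlapped between genotypes, and their 95% intervals ran from 0.877- to 1.2-fold for Hk1 and from 0.762- to 1.12-fold for Hk2.

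Phosphofructokinase is the committed step of glycolysis and is built from liver (Pfkl), muscle (Pfkm) and platelet (Pfkp) subunits. Pfkl had 48.2 and 51.5 CPM in transgenic corneas, against 37.9, 43.5 and 47.9 CPM in wild-type corneas. Pfkp had 11.1 and 11.7 CPM in transgenic corneas, against 7.80, 9.98 and 9.88 CPM in wild-type corneas. For both subunits the genotypes did not overlap, by a narrow margin over wild-type cornea 3 for Pfkl, and neither passed (log2 fold changes of 0.21 ± 0.12 and 0.31 ± 0.17, adjusted p = 0.834 by edgeR for each). Pfkm had 73.3 and 76.9 CPM in transgenic corneas, against 69.0, 77.3 and 75.5 CPM in wild-type corneas, and overlapped. Pfkfb3, whose product fructose 2,6-bisphosphate activates phosphofructokinase, had 33.4 and 31.9 CPM in transgenic corneas and 29.1, 25.0 and 34.9 CPM in wild-type corneas, with wild-type cornea 3 the highest of all.

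Aldolase splits the sugar into 3-carbon units (triose phosphates). Aldoa, the abundant form, had 483 and 398 CPM in transgenic corneas and 405, 503 and 421 CPM in wild-type corneas. Aldoc, the form best known from brain, had 9.83 and 12.7 CPM in transgenic corneas and 7.51, 6.51 and 10.8 CPM in wild-type corneas. Wild-type cornea 3 lay between the transgenic values, so the groups overlapped (log2 fold change 0.44 ± 0.23, adjusted p = 0.833 by edgeR). Gpi and Tpi1, the isomerases of this stretch, had log2 fold changes of 0.10 ± 0.10 and 0.02 ± 0.10.

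The enzymes after the triose step yield ATP and pyruvate. Pkm, the pyruvate kinase gene and the member with the most counts, had 1077 and 818 CPM in transgenic corneas and 765, 913 and 877 CPM in wild-type corneas. Transgenic cornea 1 was the highest library and transgenic cornea 2 lay below wild-type corneas 2 and 3. Eno1, the common enolase, had 582 and 477 CPM in transgenic corneas, against 468, 530 and 549.7 CPM in wild-type corneas, again with transgenic cornea 1 on top and transgenic cornea 2 inside the wild-type range. Eno2, the neuronal enolase, had 9.09 and 10.9 CPM in transgenic corneas and 9.35, 5.92 and 8.47 CPM in wild-type corneas (log2 fold change 0.33 ± 0.21, adjusted p = 0.855 by edgeR). Pgk1, the kinase that makes the first ATP of the pathway, differed least of the 29, with a fold change of 0.998 (95% interval 0.855 to 1.17), and Pgam1 had a fold change of 1.04 (0.885 to 1.22).

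Lactate dehydrogenase is a tetramer of A subunits (Ldha), which favour making lactate, and B subunits (Ldhb), which favour using it. Both genes were lower on average in transgenic corneas and neither passed. Ldha had 627 and 548 CPM in transgenic corneas, against 621, 729 and 613 CPM in wild-type corneas. Transgenic cornea 1 lay inside the wild-type range and cornea 2 below it (log2 fold change -0.16 ± 0.12, adjusted p = 0.861 by edgeR). Ldhb had 131.2 and 81.0 CPM in transgenic corneas, against 131.2, 143.6 and 146 CPM in wild-type corneas. Transgenic cornea 1 was level with wild-type cornea 1, and only transgenic cornea 2 lay clearly below the wild-type values. The log2 fold change of Ldhb was -0.40 ± 0.20 (adjusted p = 0.827 by edgeR). It was -0.79 without transgenic cornea 1 (adjusted p = 0.0435 by edgeR) and -0.10 without transgenic cornea 2 (adjusted p = 0.9998 by edgeR).

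The promoters of these 2 genes and of Pdk2, the gene-table member of smallest p, are shown from RefSeq (build GRCr8, 250 bases before to 50 bases after the gene's start, written along the gene's strand), because the hypoxia factor HIF1 is a textbook activator of Ldha and the transgene encodes a steroid receptor. Capitals mark the core of the hypoxia response element, ACGTG or GCGTG on either strand; neither AGAACA nor its reverse complement, the half-site that steroid receptors bind, occurs in these windows. Ldha lies at chr1:106507842-106508141 on the plus strand, Ldhb at chr4:177177359-177177658 and Pdk2 at chr10:80483863-80484162, both on the minus strand.
Ldha: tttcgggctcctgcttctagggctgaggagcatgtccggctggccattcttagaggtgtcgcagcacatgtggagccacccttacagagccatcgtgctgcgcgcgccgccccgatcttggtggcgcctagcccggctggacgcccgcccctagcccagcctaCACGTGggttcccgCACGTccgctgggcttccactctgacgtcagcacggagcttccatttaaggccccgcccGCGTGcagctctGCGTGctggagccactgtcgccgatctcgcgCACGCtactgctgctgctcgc
Ldhb: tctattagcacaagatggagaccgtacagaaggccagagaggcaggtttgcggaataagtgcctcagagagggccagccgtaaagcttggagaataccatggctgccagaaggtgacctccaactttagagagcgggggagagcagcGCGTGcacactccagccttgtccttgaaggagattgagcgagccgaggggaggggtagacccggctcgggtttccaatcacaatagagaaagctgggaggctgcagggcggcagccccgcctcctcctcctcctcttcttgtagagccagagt
Pdk2: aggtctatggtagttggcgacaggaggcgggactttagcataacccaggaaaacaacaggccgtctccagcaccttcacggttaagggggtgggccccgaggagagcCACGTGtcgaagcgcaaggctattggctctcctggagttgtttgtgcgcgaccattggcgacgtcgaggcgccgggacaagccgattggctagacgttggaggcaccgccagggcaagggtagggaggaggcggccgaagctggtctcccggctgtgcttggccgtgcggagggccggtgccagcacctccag
Ldha holds 6 matches, 2 of which overlap on opposite strands as CACGTG; Ldhb holds 1, and Pdk2 holds 2, which overlap in the same way. RefSeq promoters were matched by symbol for 27 of the 29 genes, and 19 of them (70.4%) held ACGTG or GCGTG, as did 45.8% of 21851 promoters of protein-coding genes. AGAACA was found in 2 of the 27 (7.41%; Aldoa and Tpi1) and in 18.2% of those promoters. Both hypoxia cores contain CG, and these shares were neither adjusted for base composition nor tested for a difference. A match is a run of letters and not a measured binding site.

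Monocarboxylate transporters carry lactate with a proton across the membrane. Slc16a1 (MCT1) had 15.6 and 17.6 CPM in transgenic corneas, against 21.0, 19.6 and 15.8 CPM in wild-type corneas. Slc16a3 (MCT4), the export form of strongly glycolytic cells, had 8.02 and 3.85 CPM in transgenic corneas and 7.29, 5.97 and 3.64 CPM in wild-type corneas. The 2-fold spread within each genotype covered any difference between them for Slc16a3 (95% interval 0.552- to 1.98-fold). Bsg, which encodes basigin, the chaperone that brings both transporters to the membrane, had 436 and 458 CPM in transgenic corneas and 444 to 454 CPM in wild-type corneas (log2 fold change -0.01 ± 0.09).

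In the pentose phosphate pathway Taldo1, the transaldolase, had 531 and 580 CPM in transgenic corneas and 502, 610 and 507 CPM in wild-type corneas. Rpia, the isomerase that makes ribose 5-phosphate, had 55.5 and 21.3 CPM in transgenic corneas and 22.6, 45.4 and 57.4 CPM in wild-type corneas. One cornea of each genotype was thus low, and the highest library was 2.61 times the lowest within transgenic and 2.54 times the lowest within wild-type corneas. A spread of at least 2 times within both genotypes was seen in 26 of 8759 features averaging 10 CPM or more (0.297%), and in 1 of the 24 genes of the set at that level. The log2 fold change of Rpia was -0.12 ± 0.65, with a 95% interval of 0.252- to 3.35-fold, so large changes in either direction remain compatible with these libraries. Tkt, the transketolase that is also a major soluble protein of the cornea, had a fold change of 1.01 (95% interval 0.841 to 1.21).

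Pyruvate enters the mitochondrion and is oxidized by pyruvate dehydrogenase, which kinases switch off and phosphatases switch on. The subunit genes Pdha1 and Pdhb differed little, with fold changes of 0.989 (95% interval 0.861 to 1.14) and 0.959 (0.824 to 1.12). Among the kinases, Pdk2 had 94.8 and 96.7 CPM in transgenic corneas, against 67.9, 67.2 and 89.2 CPM in wild-type corneas. The genotypes did not overlap, though wild-type cornea 3 came close to the transgenic pair. The log2 fold change of Pdk2 was 0.36 ± 0.13 (adjusted p = 0.716 by edgeR), and 0.29 to 0.51 with 1 library left out at a time. Pdk1, a target of HIF1, had 19.5 and 24.7 CPM in transgenic corneas and 21.6, 19.9 and 20.9 CPM in wild-type corneas. Pdk3 had 20.001 and 16.3 CPM in transgenic corneas and 20.9, 18.9 and 17.7 CPM in wild-type corneas. Pdk4, a glucocorticoid and fasting response gene in muscle and liver, had 1.43 and 1.15 CPM in transgenic corneas and 0.830, 1.22 and 1.55 CPM in wild-type corneas, from 23 to 37 counts per library. Pdk1, Pdk3 and Pdk4 overlapped between genotypes. The phosphatase gene Pdp2, from the wider list, had 19.2 and 16.3 CPM in transgenic corneas, against 25.6, 22.7 and 23.8 CPM in wild-type corneas (log2 fold change -0.44 ± 0.13, adjusted p = 0.541 by edgeR).

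The balance between isozymes or subunits within a library was compared for 10 pairs, as the log2 ratio of CPM + 0.5. Ratios are of read counts not scaled for transcript length, so they compare libraries and not the abundance of the partners. An exact two-sided permutation test of 2 against 3 corneas cannot go below p = 0.2, so no pair could pass. The ratio of Slc2a3 to Slc2a1 was -4.64 ± 0.09 in transgenic and -5.50 ± 0.11 in wild-type corneas (SD, n = 2 and 3; exact permutation p = 0.2, 0.5 adjusted over 10 pairs). Hk2 to Hk1 was -1.56 ± 0.08 in transgenic and -1.40 ± 0.11 in wild-type corneas, and Pfkm to Pfkl was 0.59 ± 0.02 in transgenic and 0.78 ± 0.11 in wild-type corneas, with the same exact p for both. These 3 pairs did not overlap between genotypes, and the other 7 did. Of single features, 12% lay above every wild-type cornea in both transgenic corneas and 10.7% lay below. The share over other gene pairs was not counted, so 3 of 10 is no result about isozyme balance. Ldhb to Ldha was -2.25 and -2.75 in transgenic corneas, against -2.24, -2.34 and -2.06 in wild-type corneas, so only transgenic cornea 2 lay outside the wild-type range.

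**Figure D4:**
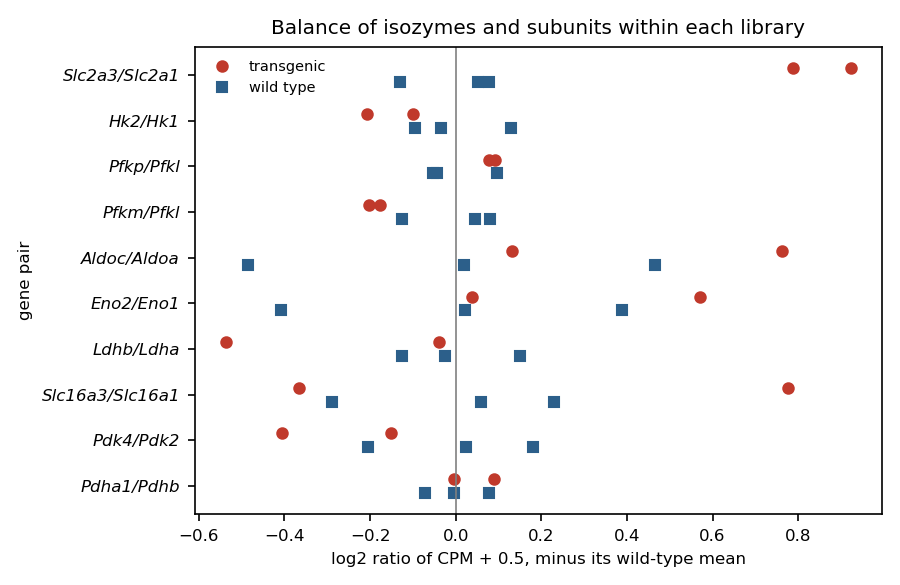
Log2 ratio of CPM + 0.5 for 10 pairs of isozymes or subunits in each library, minus the wild-type mean of that ratio (circles: 2 transgenic corneas; squares: 3 wild-type corneas). Slc2a3/Slc2a1 lies furthest from the wild-type points (difference 0.86), while Slc16a3/Slc16a1 spreads widely within the transgenic pair.

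Single isoforms were tested as well. For some genes, such as Ldhb and Pfkp, 1 named isoform held all counts of the gene, so its values repeat those of the gene. Slc2a3 was itself taken from its isoform row, so the repeat there is by construction. Of 38 isoforms of these genes tested among 27110 isoforms, 0 passed by edgeR, as did 0% of all isoforms, and 1 had an unadjusted p under 0.05, that of Slc2a3, where 3.98% of all isoforms did. The isoform of Pdk2 that carries a gene name had 61.8 and 58.0 CPM in transgenic corneas and 35.8, 41.4 and 53.7 CPM in wild-type corneas. Next by p among isoforms averaging 1 CPM or more, those of Ldhb, Pdhb (ENSRNOT00000083212) and Pfkp had log2 fold changes of -0.40 ± 0.22, -0.21 ± 0.12 and 0.31 ± 0.18. Pkm was counted on a pair of named transcripts whose shares of the gene hardly moved: ENSRNOT00000015332 held 50.2% and 46.0% of Pkm counts in transgenic corneas and 46.3% to 48.8% in wild-type corneas, and ENSRNOT00000083666 held 40.7% and 41.8% against 41.7% to 43.1%. The named Ldha transcript held 71.4% and 71.7% of the gene's counts in transgenic corneas and 69.3% to 71.8% in wild-type corneas. The named Hk1 transcript held 0% of Hk1 counts in every library, so that gene's reads lie on isoforms without a gene name. The split of Aldoc varied between libraries: ENSRNOT00000015535 held 62.1% and 73.1% of Aldoc counts in transgenic corneas, against 28.9%, 32.7% and 68.4% in wild-type corneas 1 to 3. This transcript was the larger part in both transgenic corneas and in wild-type cornea 3, and its log2 fold change of 0.99 ± 0.66 did not pass. The split of reads between transcripts is an estimate, and this pair was picked after its values were seen.

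Around these genes, 104 of 121 listed genes of neighbouring pathways were tested, and 0 passed by edgeR. At an unadjusted p under 0.05, 3 were higher and 4 lower, a share near the 6.34% of all features. DESeq2 called 1, Pfkfb4 (adjusted p = 0.0419), where it called 0.46% of all features, and limma voom called 0. Among 20 other genes of glycolysis and lactate the median log2 fold change was 0.04. Pfkfb4, a relative of Pfkfb3 that HIF1 also induces, had 33.1 and 30.4 CPM in transgenic corneas, against 45.5, 48.1 and 41.1 CPM in wild-type corneas. Both transgenic values lay below all wild-type values (log2 fold change -0.50 ± 0.11, adjusted p = 0.396 by edgeR). Slc2a12, a glucose transporter gene, had 31.6 and 34.6 CPM in transgenic corneas and 15.3, 31.2 and 23.9 CPM in wild-type corneas.

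The 9 tested genes of the pentose phosphate list had a median of 0.05, and Rpe and Shpk, those of smallest p, had log2 fold changes of -0.10 ± 0.09 and -0.16 ± 0.18. The 21 genes of pyruvate oxidation had a median of -0.02; Pdp2 was given above, and pyruvate carboxylase (Pc) had 0.26 ± 0.13. Among 20 genes of glycogen, polyol and gluconeogenesis (median 0.02), Sord, which turns sorbitol into fructose, had 14.9 and 19.5 CPM in transgenic corneas, against 11.3, 10.7 and 12.7 CPM in wild-type corneas (log2 fold change 0.58 ± 0.16, adjusted p = 0.511 by edgeR). Pygl, a glycogen phosphorylase, had 139 and 111 CPM in transgenic corneas, against 151, 190 and 150 CPM in wild-type corneas (-0.39 ± 0.14, adjusted p = 0.716 by edgeR). Neither gene overlapped between genotypes. Genes of the NADH shuttles had a median of -0.03, with -0.15 ± 0.09 for Got2 and 0.19 ± 0.13 for Gpd1l.

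Among 25 hypoxia and glucose regulators the median log2 fold change was 0.05. Hif1a, the oxygen-sensed subunit of HIF1, had 272 and 219 CPM in transgenic corneas and 225, 221 and 239 CPM in wild-type corneas. P4ha1, a collagen prolyl hydroxylase that HIF1 induces, had 38.0 and 41.0 CPM in transgenic corneas, against 29.02, 29.4 and 31.3 CPM in wild-type corneas (log2 fold change 0.40 ± 0.10, adjusted p = 0.489 by edgeR), beside the 7 of 12 stromal markers that did not overlap. Mlx, a partner of the glucose-sensing factors, had -0.25 ± 0.11. Txnip, an arrestin-like gene that glucose raises and that restrains its uptake, had 302 and 540 CPM in transgenic corneas and 253, 372 and 496 CPM in wild-type corneas. Its highest library was 1.79 times the lowest within transgenic and 1.96 times within wild-type corneas, and its log2 fold change was 0.17 ± 0.40.

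**Figure D5:**
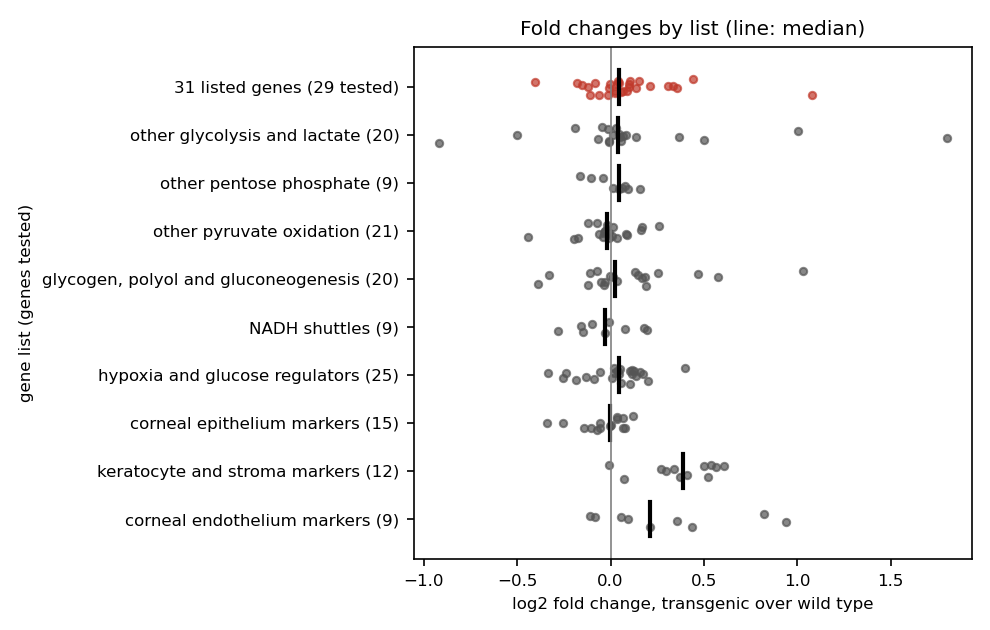
Log2 fold change, transgenic over wild type, of each tested gene by list, with a line at the list's median; the number of genes tested is in brackets. The glucose-use genes and the 6 neighbouring pathways have medians between -0.03 and 0.05, while the keratocyte and stroma markers have a median of 0.39.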

How the data were processed

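RNA sequencing of 2 transgenic and 3 wild-type corneas was deposited by the authors as 2 tables of estimated counts, 1 row for each gene or isoform, neither normalized nor logged, with STAR 2.5.3a, fastp, FastQC, edgeR 3.28.0, DESeq2 1.26.0, RSEM 1.2.28 and the build rn6 named in the submitters' processing notes. Roles, filters and strand setting are not given in the sources used here. Estimated counts divide shared reads among near-identical copies, and 7 gene-table members have fractional counts, so such values are uncertain. Each column matched 1 sample's description. No source says how replicates were made or whether each library is a separate animal, so p-values measure the spread between these libraries.

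Counts were rounded and filtered by filterByExpr (minimum count 10), scaled by TMM and tested with edgeR 4.0.16 (quasi-likelihood F test, robust, two-sided) in R 4.3.3, with Benjamini-Hochberg adjustment over all features; listed symbols found only in the isoform table entered as the sum of their isoform rows. SE is the log2 fold change divided by the square root of F, and 95% intervals use the fit's degrees of freedom. DESeq2 1.42.0 and limma 3.58.1 voom were alternatives. The fit was tested on simulated data. The main fit did not pair the samples by replicate number.

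The members, gene lists and tests were chosen with earlier results of these data known. Values per library are given for the 10 members of smallest p, isozyme pairs, Pfkfb3 and the Pdk genes, and others were named by the 2 smallest p per list (mean of at least 1 CPM) or as key enzymes fixed with the lists. Of the isoforms, the 5 of smallest p averaging 1 CPM or more and those of Pkm, Ldha and Hk1 are named. Some genes that these rules name are not reported here.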

Additional observations from a re-analysis of the deposited data

How the results depend on the processing

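The count of genes of glucose use called stayed at 0 under other scalings (DESeq2's factors in edgeR, upper quartile, total counts), without a filter on low counts, with a filter of a mean of at least 1 CPM, with limma voom and with the replicate number as a block. DESeq2 called 1 (Slc2a3), and leaving out 1 library at a time called 0 to 1 (Ldhb, without transgenic cornea 1). The count over all features was 1, and became 2 without the filter, 16 with the replicate block, 59 with DESeq2 and 2 to 36 with 1 library left out; the replicate numbers are shared by label only, and deviations of same-numbered corneas correlated at 5.32e-04 and -0.106. Neighbouring pathway genes called were 1 with DESeq2 (Pfkfb4) and 0 elsewhere. The median log2 fold change of the 29 genes ran from -0.040 (without transgenic cornea 1) to 0.15 (without transgenic cornea 2). With 1 library left out, genes lying above all wild-type values numbered 5 to 10, and below them 0 to 7. Fewer libraries make such separation easier for any gene. The share over all features was not counted in those settings, so these counts are no result about the set. Ldhb no longer lay below with DESeq2's factors or without the filter (0). Pkm changed sign without transgenic cornea 1 (-0.058; 0.34 without transgenic cornea 2). Other sign differences, up to 9 genes without transgenic cornea 2, were in genes whose fold change was smaller than its SE. With a pseudocount of 2 the Slc2a3/Slc2a1 difference was 0.63. With 1 library left out, the Ldhb/Ldha difference ran from -0.54 to -0.039 and that of Slc16a3/Slc16a1 from -0.37 to 0.78. Fits that leave 1 transgenic cornea assume that it varies like the wild-type ones. With 2 against 3 corneas, any change inside a gene's printed interval remains compatible with these libraries.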

Other observations

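Rpia was compared with neighbours in gene order on chromosome 4 (RefSeq, GRCr8), since it was low in transgenic cornea 2 and wild-type cornea 1 and high in the other 3 libraries. Eif2ak3 had a highest library 1.24 times the lowest within transgenic and 1.28 times within wild-type corneas, against 2.61 and 2.54 times for Rpia. Thnsl2 had 7.59 and 6.21 CPM in transgenic corneas 1 and 2, and 5.63, 7.09 and 8.28 CPM in wild-type corneas 1 to 3, so its libraries split as those of Rpia did, with smaller spreads of 1.22 times within transgenic and 1.47 times within wild-type corneas. Il23r was under 1.2 CPM in every library. Of the 26 features averaging 10 CPM or more that had a spread of at least 2 times within both genotypes, Rpia, Brinp2, Ccdc9b, Igsf11, Polm and Slc47a1 had transgenic cornea 1 and wild-type corneas 2 and 3 all above the other 2 libraries. Slc47a1, a transporter of organic cations, had 140 and 49.6 CPM in transgenic corneas 1 and 2, and 71.0, 144 and 122 CPM in wild-type corneas 1 to 3. Polm, a DNA polymerase, had 34.0 and 15.2 CPM in transgenic corneas and 10.3, 25.6 and 31.6 CPM in wild-type corneas. These genes were picked after their values were seen, and the cause was not tested.

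Beside the sum over each list of other cell types, the marker of highest wild-type level is given, which need not follow its list. Lens markers summed to 15.3 and 10.2 CPM in transgenic corneas 1 and 2, and to 113, 28.1 and 22.6 CPM in wild-type corneas 1 to 3. The lens crystallin Crybb2 had 6.51 and 1.78 CPM in transgenic corneas and 58.1, 12.9 and 8.88 CPM in wild-type corneas. In both transgenic corneas, 6 of 9 tested lens markers lay below every wild-type cornea, where 10.7% of all features did. Retina markers summed to 20.5 and 24.6 CPM in transgenic corneas and to 7.09 to 23.9 CPM in wild-type corneas. The pigment cell gene Tyrp1 had 41.9 and 79.9 CPM in transgenic corneas and 23.1, 2.93 and 16.2 CPM in wild-type corneas. Col1a1, of stromal keratocytes, had 673 and 901 CPM in transgenic corneas and 528 to 630.3 CPM in wild-type corneas. Endothelial markers summed to 1581 and 1554 CPM in transgenic corneas and to 1444 to 1532 CPM in wild-type corneas, with Tjp1 at 533 and 487 CPM in transgenic corneas and 529 to 578 CPM in wild-type corneas. In both transgenic corneas 4 of the 9 tested endothelial markers (Col8a1, Col8a2, Slc4a4 and Cd200) exceeded every wild-type cornea, where 12% of all features did. All 4 had an unadjusted p under 0.05 by edgeR, as did 6.34% of all features, and none passed after adjustment. Of the 9 markers 7 had a positive fold change, while Slc4a11 (log2 fold change -0.08) and Tjp1 (-0.11) had a negative one. Erbb3, of Schwann cells, had 173 and 155 CPM in transgenic corneas and 122 to 162 CPM in wild-type corneas. Sums overlapped for leukocytes (88.7 and 93.0 CPM in transgenic corneas, 85.5 to 96.3 CPM in wild-type corneas) and skeletal muscle (23.3 and 27.7 CPM in transgenic corneas, 17.8 to 30.8 CPM in wild-type corneas), where Cd68 had 47.0 and 30.1 CPM in transgenic corneas and 42.5 to 56.0 CPM in wild-type corneas, and Tnnt3 had 9.25 and 13.0 CPM in transgenic corneas and 5.19 to 9.49 CPM in wild-type corneas. Cd68 had a negative fold change where 6 of 10 tested leukocyte markers had a positive one, and Tnnt3 a positive one where only 2 of 5 muscle markers did. Vessel and red cell markers summed to 73.0 and 62.2 CPM in transgenic corneas and to 47.7 to 58.3 CPM in wild-type corneas, with Vwf at 35.1 and 22.4 CPM in transgenic corneas and 20.7 to 26.6 CPM in wild-type corneas.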
